A study of Homo sapiens with 10 samples.

Results

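The DNA replication machinery was followed through 48 genes, from the origin licensing factors to the enzymes that finish the new strands. They were picked by name for their textbook roles, with earlier results of these data known. Their symbols were matched to the Ensembl identifiers of the count files, which list 58395 genes. All 48 were found, and all 48 had enough counts to be tested. By role they are 11 licensing factors, 8 factors that activate the helicase, 9 polymerase and primase subunits, 7 clamp and clamp loader subunits, the 3 subunits of the single-strand binding protein RPA, 3 enzymes of lagging strand maturation, 4 fork protection factors and 3 chromatin factors that work at the fork.

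HeyA8, an established line of human ovarian cancer, was the source of the RNA, collected after transfection with 10 nM of siRNA. An siRNA is named here after bases 2 to 7 of its guide strand, the 6mer seed through which a guide can pair with messenger RNAs as a microRNA does. siGGGGGC (siMxy in the sample titles) and siNT1, the non-targeting control, were each followed to 24 h and 48 h. siGGCAGU (si34a in the titles), which carries the seed of miR-34a-5p, was sampled only at 48 h. Both toxic siRNAs, as the study describes them, had a chemically modified passenger (sense) strand. The study's list of oligonucleotides writes the siNT1 sense strand with the same marked bases at its start. The siNT1 label carries the mark S2'OM. Each of the 5 groups had 2 libraries, from duplicate wells of 1 cell line, so the p-values measure the spread between wells and not between independent cultures or lines.

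Before S phase, the origin recognition complex with CDC6 and CDT1 loads the ring of MCM2 to MCM7 onto DNA, and geminin (GMNN) blocks further loading by binding CDT1. The kinases of the cell cycle then recruit CDC45 and the GINS complex, which turn the ring into the active helicase. Polymerase alpha with primase starts each new strand, polymerases delta and epsilon extend it on the sliding clamp PCNA, and E2F transcription factors are known to switch on many of these genes as cells enter S phase.

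The libraries held 19781445 to 42428986 counts. Of these, 2 small structural RNA genes, RN7SL2 and SNORD3A, took 19.8% to 32.0%. VIM, KRT8, KRT18 and CDH2, markers fixed for the line, were well covered. PAX8, also fixed, had group means from 103 normalised counts (siGGGGGC at 48 h) to 834 (siGGCAGU at 48 h). The remaining markers WT1, EPCAM and CDH1 were low (group means of 42.6 to 108, 12.7 to 35.2 and 1.25 to 12.3 normalised counts). Of the 7 markers tested, 6 were lower with siGGGGGC at 48 h, from -0.49 for CDH2 to -2.70 for PAX8 on the log2 scale, with KRT8 at -1.47 and KRT18 at -1.38. With siGGCAGU 3 were lower (VIM, EPCAM and WT1) and 2 higher (KRT8 and PAX8). The part of these shifts in the results was not tested. None of 6 markers of blood, endothelial and liver cells exceeded 16 raw counts in a library. The replicates of siGGCAGU were the least alike for the members, with a standard deviation of 0.345 for the log2 ratio of replicate 1 to replicate 2, against 0.121 to 0.201 in the other groups, and a median ratio of 0.14 on the log2 scale.

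Summed over the 48 members, and scaled by the TMM library size, the control cells held 2801 ± 27.5 CPM (counts scaled to a common library size) at 24 h and 2712 ± 15.1 at 48 h (SD, n = 2 each). With siGGGGGC the sum was 3312 ± 43.5 at 24 h and 2032 ± 16.7 at 48 h (SD, n = 2 each). With siGGCAGU it was 962 ± 52.4 at 48 h (SD, n = 2). The siGGGGGC libraries thus lay above both controls at the early time and below both at the late time, and the siGGCAGU libraries lay lowest of all. In bulk RNA, fewer cells in S phase and less of these RNAs in each cell cannot be told apart.

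**Figure D1:**
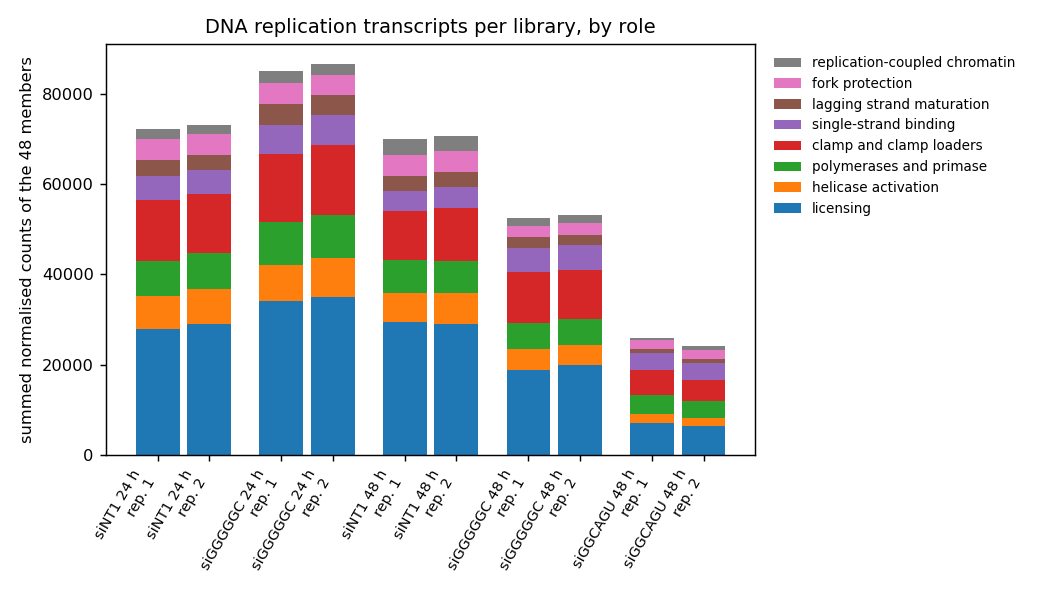
Summed normalised counts of the 48 replication genes in each of the 10 libraries (x axis), stacked by role. Both siGGCAGU libraries are the lowest, with licensing factors at 6930 and 6386 against 29393 and 28949 in siNT1 at 48 h.

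To show what the guides could pair with, the seeds and their matches are given first. RefSeq (GRCh38.p14) holds mature microRNAs with both seeds, miR-34a-5p at chr1:9151735-9151756 on the minus strand and miR-1237-5p at chr11:64368651-64368671 on the plus strand. Capitals mark bases 2 to 8. The seed shared with the siRNAs is bases 2 to 7, since base 8 is G in both microRNAs and A in both guides as the study lists them.
hsa-miR-34a-5p: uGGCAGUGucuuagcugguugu
hsa-miR-1237-5p: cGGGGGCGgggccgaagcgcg

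The 3′ UTRs of the members were searched for the complements of the seeds, ACTGCC for siGGCAGU and GCCCCC for siGGGGGC, in the longest 3′ UTR of each gene in GENCODE 44 (hg38). ACTGCC occurred in 8 of 48 members (16.7%), against 32.7% of 19242 genes, and GCCCCC in 5 of 48 (10.4%), against 30.2%. The median 3′ UTR length was 946 bases for the members and 1229 for all genes. In the coding sequence, ACTGCC occurred in 22 of 48 members (45.8%), against 38.8% of 19607 genes, and GCCCCC in 16 (33.3%), against 41.8%. Both words were thus less frequent in the 3′ UTRs of the members, and ACTGCC was more frequent in their coding sequences, which were also longer (median 1704 against 1311 bases). Of the 6 members with the lowest log2 fold changes with siGGCAGU, GMNN and MCM5 had ACTGCC in the 3′ UTR, MCM2 and UHRF1 had it in the coding sequence alone, and MCM3 and MCM10 had it in neither. A selection of 6 of the matches is shown in mRNA sense with the match in capitals, for members with per-library values below. The first 4 are for siGGCAGU and the last 2 for siGGGGGC.
MCM5, chr22:35424813-35424840, plus strand: gcggcggtcagACTGCCtggattcatgg
MCM7, chr7:100092526-100092553, minus strand: tttggtcttatACTGCCtgtgtgcaagt
GMNN, chr6:24785820-24785847, plus strand: ttgagaattttACTGCCgaagtttacct
GINS3, chr16:58404999-58405026, plus strand: aaataagaatcACTGCCatataatatat
MCM7, chr7:100092640-100092667, minus strand: ctccctgccagGCCCCCagtatagacac
UHRF1, chr19:4961195-4961222, plus strand: ctcgggttctgGCCCCCaaggtcagagc

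Promoters of 41 members were in the RefSeq table (GRCh38.p14) as windows around each annotated start. They were searched on both strands for 4 words to which E2F can bind, TTTGGCGC, TTTCGCGC, TTTCCCGC and TTTGGCGG. The first and the last of these words differ only in their final base, and a word and its reverse complement may overlap. At least 1 word was present in 25 of 41 members (61.0%), against 3.35% of all 35116 promoters and 4.19% of 22199 protein-coding ones. CCAAT was present in 61.0% of members and in 34.6% of all promoters. A member was counted if any of its windows held a word, whereas the shares of promoters count each window on its own. Some members have several windows, so the shares of members and of promoters are not in the same unit. These are matches of letters and not measured binding. MCM4, MCM5, GINS4, POLD3, DSCC1, RPA2 and RPA3 had no promoter in the RefSeq table. Of the licensing factors, ORC1 and ORC6 had a promoter there but no E2F word. Windows of 30 bases around a word are shown for a selection of the members with a word, in the gene's direction. Capitals mark the word or its reverse complement.
MCM2, chr3:127598402-127598431, plus strand: cgtgaaccactTTTCGCGCgaaacctggtt
MCM3, chr6:52284728-52284757, minus strand: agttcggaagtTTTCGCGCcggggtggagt
MCM6, chr2:135876515-135876544, minus strand: cattggtcaggTTTGGCGCgaaatctccag
MCM7, chr7:100101388-100101417, minus strand: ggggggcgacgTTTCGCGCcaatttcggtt
CDC6, chr17:40287875-40287904, plus strand: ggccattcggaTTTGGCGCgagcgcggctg
GMNN, chr6:24775322-24775351, plus strand: gctgggtcggtTTTGGCGCgctctcacttc
UHRF1, chr19:4909476-4909505, plus strand: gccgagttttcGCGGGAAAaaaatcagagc
MCM10, chr10:13161552-13161581, plus strand: ccggttggaatTTTGGCGGgttcagctgtg

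To determine how far the replication genes fell with the miR-34a-5p seed, siGGCAGU was compared with siNT1 at 48 h. Of the 48 members, 46 were lower at an adjusted p below 0.05 and 40 of them were more than 2-fold lower. Among all 16905 genes tested, 24.9% were lower and 9.62% more than 2-fold lower. None of the members was higher in the edgeR quasi-likelihood test, at an unadjusted p below 0.05 also 0, and with DESeq2 and limma-voom 0 as well. The median log2 fold change of the members was -1.64, against 0.02 over all genes tested. In 46 members both siGGCAGU libraries lay below both siNT1 libraries, a pattern seen in 34.9% of all genes tested.

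**Figure D2:**
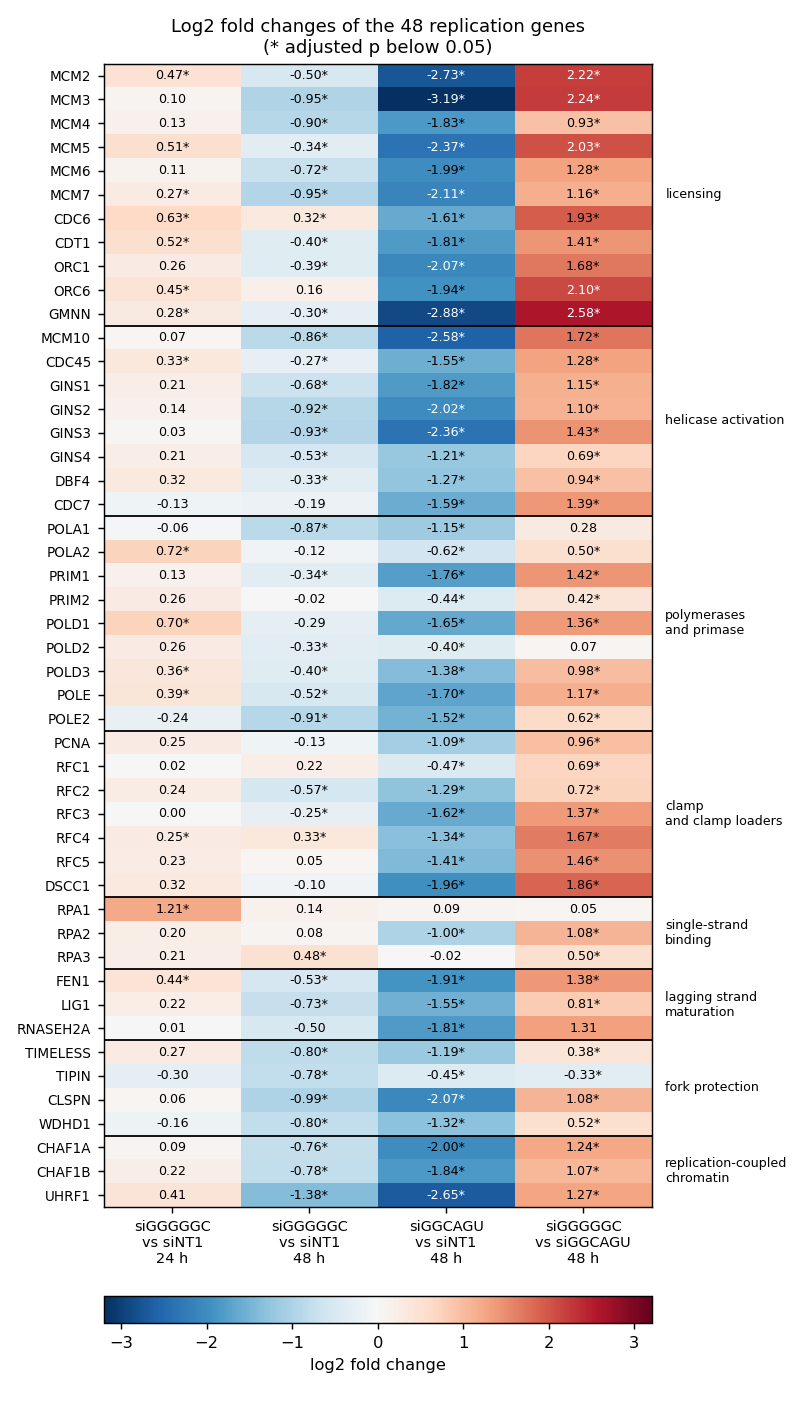
Log2 fold change of each of the 48 genes (rows, grouped by role) in 4 comparisons (columns), with blue for lower and red for higher. Asterisks mark an adjusted p below 0.05. The column of siGGCAGU against siNT1 is blue except for RPA1 and RPA3, while that of siGGGGGC at 24 h holds no member that was lower at this threshold.

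All 11 licensing factors were more than 2-fold lower with siGGCAGU, with a median log2 fold change of -2.07. MCM3 (ENSG00000112118, chr6:52264014-52284881, minus strand, hg38), a subunit of the helicase ring, had 3398 and 3559 normalised counts in the siNT1 libraries and 400 and 365 with siGGCAGU. It was 9.12-fold lower, with a log2 fold change of -3.19 (SE 0.0942). Its adjusted p of 4.16e-12, like all that follow, is a Benjamini-Hochberg value from the quasi-likelihood test of edgeR. No member fell further. GMNN (ENSG00000112312, chr6:24774931-24786099, plus strand) encodes geminin, the inhibitor of licensing. It had 1644 and 1650 normalised counts with siNT1 and 211 and 234 with siGGCAGU, a log2 fold change of -2.88 (SE 0.0975, adjusted p = 8.22e-12). MCM2 (ENSG00000073111, chr3:127598410-127622436, plus strand) fell from 2334 and 2135 to 365 and 315 normalised counts, a log2 fold change of -2.73 (SE 0.109, adjusted p = 4.53e-11). For these genes the libraries of both groups were far apart.

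The rest of the ring fell by smaller amounts. MCM5 had 2328 and 2112 normalised counts with siNT1 and 468 and 394 with siGGCAGU, a log2 fold change of -2.37 (SE 0.113, adjusted p = 2.18e-10). MCM7 had 4572 and 4504 against 1108 and 1004, with a log2 fold change of -2.11 (SE 0.0898, adjusted p = 7.57e-11). Introns of MCM7 hold 3 microRNA genes on the same strand, and reads of unspliced RNA from them were not separated. MCM6 had 1443 and 1098 against 280 and 350 (log2 fold change -1.99, SE 0.133, adjusted p = 7.8e-09), and its control libraries differed more than those of the other subunits. MCM4, the most counted subunit, had 9223 and 9241 against 2674 and 2510, with a log2 fold change of -1.83 (SE 0.0856, adjusted p = 1.82e-10). The 6 subunits work in equal numbers in the ring, but their RNAs did not fall by equal amounts. Per kilobase of exon, the group means in siNT1 at 48 h were 36.7 CPM for MCM3, 36.1 for MCM4, 35.2 for MCM7, 18.2 for MCM2, and 11.8 for both MCM5 and MCM6. With siGGCAGU the order on this scale changed, with MCM4 at 10.1, MCM7 at 8.19, MCM3 at 4.04, MCM6 at 2.93, MCM2 at 2.77 and MCM5 at 2.28. The last 3 lay close together. The length used was the union of all annotated exons, 9852 bases for MCM4 and 7268 for MCM5, against 3645 for MCM3 and 4135 for MCM6. The longest coding sequence and 3′ UTR had 2715 and 1382 bases for MCM4, and 2562 and 574 for MCM3. The order between subunits therefore depends on the length chosen, and no other length was tried.

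**Figure D3:**
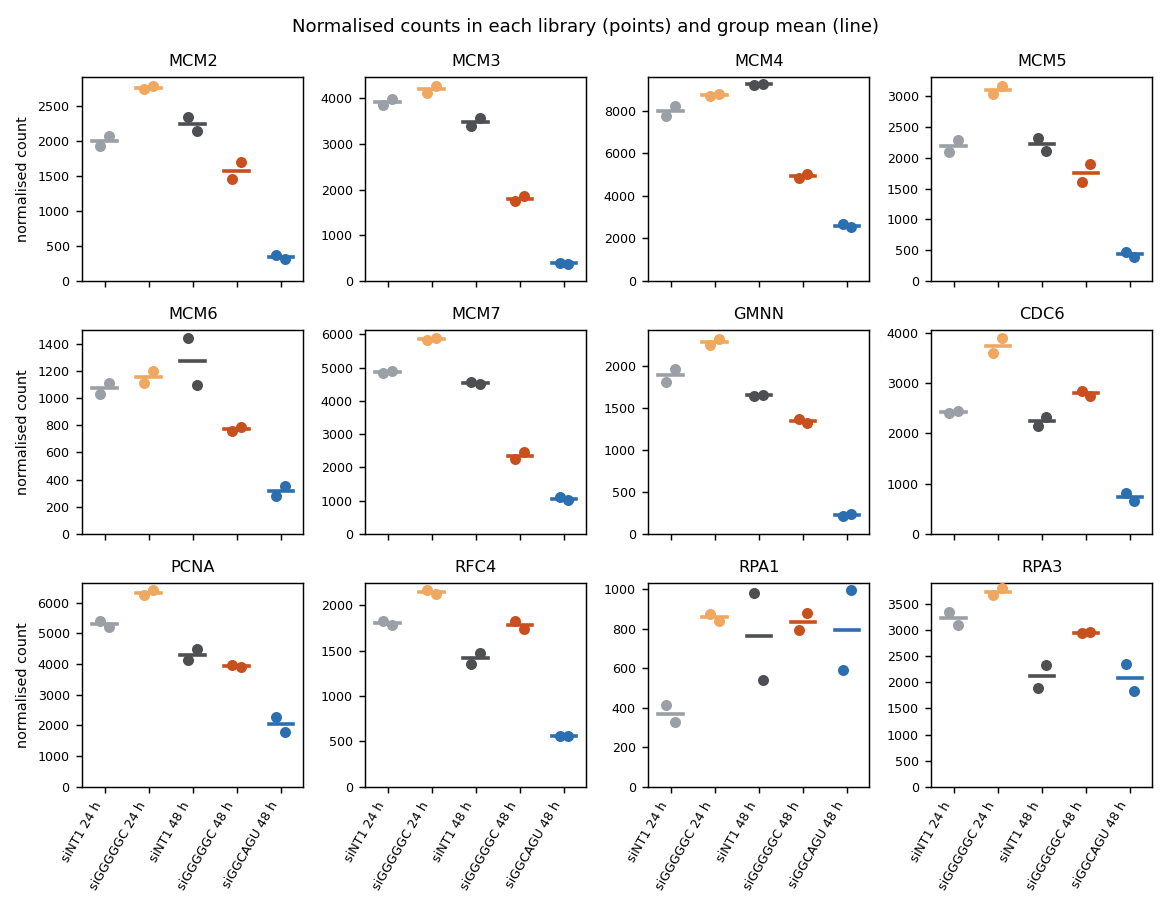
Normalised counts (y axis, from 0) of 12 replication genes in the 2 libraries of each group (points) with the group mean (line). The siGGCAGU points lie lowest for the 6 helicase subunits, GMNN, CDC6, PCNA and RFC4, whereas RPA1 and RPA3 overlap with the siNT1 points at 48 h.

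The loaders fell as well. CDC6, an ATPase that helps to load the ring, had 2146 and 2327 normalised counts with siNT1 and 820 and 652 with siGGCAGU (log2 fold change -1.61, SE 0.106, adjusted p = 6.31e-09). CDT1, the other loading factor, had 311 and 266 against 74.5 and 87.0 (log2 fold change -1.81, SE 0.138, adjusted p = 3.06e-08). ORC1, the subunit of the origin recognition complex whose level varies with the cell cycle, had 1187 and 1252 against 309 and 275 (log2 fold change -2.07, SE 0.0936, adjusted p = 1.24e-10). Thus the activators of licensing and its inhibitor GMNN were lower in the same libraries. ORC6, another subunit, had 806 and 804 against 221 and 200 (log2 fold change -1.94, SE 0.101, adjusted p = 5.58e-10).

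All 8 factors that activate the helicase were more than 2-fold lower with siGGCAGU (median log2 fold change -1.71). MCM10, which helps the helicase to leave the origin, had 1465 and 1488 normalised counts with siNT1 and 237 and 254 with siGGCAGU, a 6.00-fold difference (log2 fold change -2.58, SE 0.0933, adjusted p = 1.67e-11). GINS3 and GINS2 are subunits of the GINS complex. GINS3 had 349 and 326 against 62.8 and 67.7 (log2 fold change -2.36, SE 0.136, adjusted p = 1.57e-09), and GINS2 had 778 and 874 against 243 and 173 (log2 fold change -2.02, SE 0.133, adjusted p = 6.53e-09). The other 5 ranged from -1.83 for GINS1 to -1.21 for GINS4, with CDC45 at -1.55 and the kinase pair CDC7 and DBF4 at -1.59 and -1.27.

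At the fork itself the effect was uneven. All 9 polymerase and primase subunits were lower with siGGCAGU, but only 6 by more than 2-fold. PRIM1, the catalytic subunit of primase, had a log2 fold change of -1.76, whereas PRIM2, its partner, had -0.44. Similarly, the catalytic subunits POLD1 and POLE had -1.65 and -1.70, while POLD2, an accessory subunit of polymerase delta, had -0.40. POLA1, the catalytic subunit of polymerase alpha, had 478 and 503 normalised counts with siNT1 and 232 and 214 with siGGCAGU (log2 fold change -1.15, SE 0.115, adjusted p = 6.03e-07). POLA2, its second subunit, had -0.62. Whether subunits of 1 enzyme differed from each other was not tested.

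The 7 clamp and clamp loader genes were all lower with siGGCAGU, 6 of them by more than 2-fold. PCNA, the sliding clamp, was the most abundant member per kilobase in every group (118 CPM per kilobase in siNT1 at 48 h). It had 4123 and 4484 normalised counts with siNT1 and 2264 and 1796 with siGGCAGU, a log2 fold change of -1.09 (SE 0.103, adjusted p = 3.33e-07). RFC3, a small subunit of the clamp loader, had 1452 and 1609 against 539 and 460 (log2 fold change -1.62, SE 0.0993, adjusted p = 3.09e-09). The study names RFC3 as a control gene for binding to siGGGGGC, unchanged with that siRNA at 24 h. That siRNA and time are not those compared here. RFC4 had 1357 and 1476 against 565 and 557 (log2 fold change -1.34, SE 0.0868, adjusted p = 5.73e-09). The large subunit RFC1, at -0.47, was lowered least in this group.

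RPA stood apart. RPA3, its smallest subunit, had 1896 and 2327 normalised counts with siNT1 and 2342 and 1833 with siGGCAGU, and the groups overlapped (log2 fold change -0.02, SE 0.117, adjusted p = 0.894). RPA1, the large subunit, had 984 and 541 against 594 and 999, so both groups were split and the comparison had little precision (log2 fold change 0.09, SE 0.231, adjusted p = 0.78). RPA2 was lower, with a log2 fold change of -0.996 (SE 0.0957, adjusted p = 3.91e-07). RPA1 and RPA3 were the only 2 of the 48 members that did not pass the test with siGGCAGU. Genes on the opposite strand overlap both, SMYD4 and a pseudogene at RPA1 and UMAD1 and a long non-coding RNA gene at RPA3. In GENCODE 44, annotated genes overlap 32 of the 48 members, 24 of them with a gene on the opposite strand. Since the strand setting of the counting is not given in the sources used here, reads of such genes may be included in any of these.

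Behind the fork, all 3 maturation enzymes and all 3 chromatin factors were more than 2-fold lower with siGGCAGU. FEN1, the flap endonuclease, and LIG1, the ligase that joins Okazaki fragments, had log2 fold changes of -1.91 and -1.55. RNASEH2A had no more than 34 raw counts in any library and is uncertain (log2 fold change -1.81, SE 0.485, adjusted p = 0.00538). UHRF1 (ENSG00000276043, chr19:4903080-4962154, plus strand), which brings the maintenance DNA methyltransferase to new DNA, had 2312 and 2051 normalised counts with siNT1 and 264 and 416 with siGGCAGU, a log2 fold change of -2.65 (SE 0.154, adjusted p = 1.68e-09). CHAF1A and CHAF1B, subunits of the histone chaperone CAF-1, had -1.998 and -1.84. Of the fork protection factors, CLSPN (claspin, an adaptor of the checkpoint) had 1292 and 1305 against 263 and 346 (log2 fold change -2.07, SE 0.114, adjusted p = 9.12e-10). TIPIN, with 663 and 773 against 568 and 492, was lowered little (log2 fold change -0.45, SE 0.106, adjusted p = 0.00223), and its libraries did not overlap either.

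To determine whether the GGGGGC seed gave the same picture at 48 h, siGGGGGC was compared with the same siNT1 libraries. It lowered 33 of the 48 members and raised 3, where 27.5% and 27.8% of all genes tested were lower and higher. Only UHRF1 was more than 2-fold lower, against 11.0% of all genes tested, and CLSPN, MCM3 and MCM7 lay just inside 2-fold. The number beyond 2-fold was 4 without replicate 1 of siGGGGGC, 2 without its replicate 2 or without replicate 1 of siNT1 at 48 h, and 8 without a filter on low counts. The median log2 fold change was -0.45 (all genes tested, -0.01), and values ranged from -1.38 to 0.48. Both siGGGGGC libraries lay below both controls in 39 members (39.3% of all genes tested) and above them in 5 (38.1%). This comparison shares its control libraries with that of siGGCAGU.

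UHRF1 had 791 and 879 normalised counts with siGGGGGC, 2.61-fold below the controls given above (log2 fold change -1.38, SE 0.144, adjusted p = 9.66e-07). The helicase ring was lower in each of its 6 subunits. MCM3 had 1741 and 1850 normalised counts (log2 fold change -0.95, SE 0.0842, adjusted p = 1.82e-07) and MCM7 had 2240 and 2460 (log2 fold change -0.95, SE 0.086, adjusted p = 2.36e-07). MCM4 had 4859 and 5007 (log2 fold change -0.90), MCM6 had 756 and 787 (-0.72), MCM2 had 1453 and 1697 (-0.50), and MCM5 had 1613 and 1894 (-0.34, SE 0.103, adjusted p = 0.0113). MCM5 was thus close to the threshold, and its call was lost without replicate 1 of siNT1 or of siGGGGGC, at log2 fold changes of -0.27 and -0.23.

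Factors that build and guard the fork were also lower with siGGGGGC. CLSPN had 674 and 632 normalised counts (log2 fold change -0.99, SE 0.107, adjusted p = 1.47e-06), GINS3 had 188 and 166 (-0.93, SE 0.12, adjusted p = 8.79e-06) and GINS2 had 416 and 460 (-0.92, SE 0.124, adjusted p = 1.43e-05). All 4 fork protection factors were lower, at -0.78 to -0.99, as were all 3 chromatin factors and 7 of 8 helicase activation factors. Of the latter, CDC7 did not pass the test (-0.19, adjusted p = 0.104). MCM10 had 787 and 838 normalised counts (-0.86, SE 0.0845, adjusted p = 5.28e-07). POLA1 had 287 and 252 (-0.87, SE 0.113, adjusted p = 1.03e-05).

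The members that rose with siGGGGGC at 48 h were RPA3, RFC4 and CDC6. RPA3 had 2941 and 2953 normalised counts against 1896 and 2327 (log2 fold change 0.48, SE 0.116, adjusted p = 0.00252). RFC4 had 1830 and 1739 against 1357 and 1476 (0.33, SE 0.0824, adjusted p = 0.00299), and CDC6 had 2847 and 2739 against 2146 and 2327 (0.32, SE 0.1, adjusted p = 0.0135). In each case both treated libraries lay above both controls. The gene EIF4A2 overlaps RFC4 on the opposite strand. The calls of CDC6 and RFC4 were lost without a filter on low counts (0.20 and 0.21), and that of CDC6 also without replicate 1 of siNT1 or of siGGGGGC (log2 fold changes of 0.26 and 0.29). Other licensing factors went down, with CDT1 at 221 and 215 normalised counts (-0.40, SE 0.123, adjusted p = 0.0123), ORC1 at 933 and 925 (-0.39, SE 0.0858, adjusted p = 0.00114) and GMNN at 1361 and 1313 (-0.30, SE 0.085, adjusted p = 0.00726). The CDT1 call was lost with DESeq2 (-0.39, adjusted p = 0.051), without replicate 1 of siNT1 (-0.29) and without replicate 2 of siGGGGGC (-0.38), and that of GMNN without replicate 2 of siGGGGGC (-0.27). ORC6, at 866 and 934, did not pass the test (0.16, adjusted p = 0.147). RFC3 had 1340 and 1233 normalised counts (-0.25, SE 0.0939, adjusted p = 0.0331), and its call was lost with DESeq2 (-0.24, adjusted p = 0.0681), without replicate 2 of siNT1 (-0.17) or of siGGGGGC (-0.19), and without either siNT1 library of 24 h (-0.25). PCNA, with 3966 and 3895, did not pass (-0.13, SE 0.101, adjusted p = 0.288).

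At 24 h, the same siRNA gave a different picture. No member was lower in the edgeR quasi-likelihood test, where 8.32% of all genes tested were, and 15 members were higher, against 10.6% of all genes tested. At an unadjusted p below 0.05, 1 member was lower and 27 were higher, and DESeq2 and limma-voom also found 0 lower. None was more than 2-fold lower, where 2.17% of all genes tested were. The fold changes were small, with a median of 0.24 on the log2 scale (all genes tested, 0.00) and 43 positive against 5 negative values. Both siGGGGGC libraries lay above both siNT1 libraries in 38 members, against 32.0% of all genes tested, and below them in 4, against 30.7%. Leaving out either siNT1 library left 6 of the 15 calls, and leaving out either siGGGGGC library left 9, with no change of sign among the 15. CDC6, POLA2, POLD1 and FEN1 kept their calls in each of these 4 fits.

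Licensing factors made up 7 of the 15, namely MCM2, MCM5, MCM7, CDC6, CDT1, ORC6 and GMNN. CDC6 had 2408 and 2435 normalised counts with siNT1 and 3595 and 3892 with siGGGGGC (log2 fold change 0.63, SE 0.101, adjusted p = 0.000511). MCM5 had 2091 and 2293 against 3045 and 3176 (0.51, SE 0.104, adjusted p = 0.00303), and MCM2 had 1927 and 2061 against 2734 and 2784 (0.47, SE 0.0986, adjusted p = 0.0036). Both siGGGGGC libraries lay above both controls for these genes. The calls of MCM2 and MCM5 were nonetheless lost without replicate 1 of siNT1 (0.42 and 0.44). CDT1 had 235 and 224 against 321 and 339 (0.52, SE 0.13, adjusted p = 0.0107), ORC6 had 746 and 686 against 989 and 965 (0.45, SE 0.0945, adjusted p = 0.00369), and GMNN had 1803 and 1965 against 2246 and 2319 (0.28, SE 0.0853, adjusted p = 0.0334). MCM7 had 4843 and 4897 against 5818 and 5886 (0.27, SE 0.0851, adjusted p = 0.0405). The other ring subunits did not pass: MCM3 had 3854 and 3975 against 4117 and 4267 (0.10), MCM4 had 7748 and 8233 against 8706 and 8781 (0.13), and MCM6 had 1032 and 1110 against 1114 and 1203 (0.11).

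The largest rise at 24 h was that of RPA1 (ENSG00000132383, chr17:1829702-1900082, plus strand), the only member beyond 2-fold (1.55% of all genes tested). It had 417 and 326 normalised counts with siNT1 and 878 and 841 with siGGGGGC (log2 fold change 1.21, SE 0.253, adjusted p = 0.00352). Without replicate 2 of siNT1 it no longer passed (log2 fold change 1.05), and its replicates also differed widely in the siNT1 and siGGCAGU groups at 48 h. POLA2 had 382 and 409 against 632 and 665 (0.72, SE 0.113, adjusted p = 0.00044), and POLD1 had 470 and 589 against 876 and 847 (0.70, SE 0.13, adjusted p = 0.00149). Of the other named genes, PCNA had 5407 and 5218 against 6238 and 6406 (0.25, adjusted p = 0.1), ORC1 1172 and 1176 against 1399 and 1407 (0.26, adjusted p = 0.0508), and UHRF1 1173 and 1134 against 1659 and 1416 (0.41, adjusted p = 0.0579). These lay above the controls in both libraries without passing the test in the main fit. In an edgeR fit of the compared libraries alone, PCNA, ORC1 and UHRF1 passed (adjusted p = 0.00247, 0.00743 and 0.00096). UHRF1 also passed with DESeq2 (adjusted p = 0.0421) and ORC1 with limma-voom (adjusted p = 0.0486), so these calls depended on the setting. RFC3, with 1889 and 1833 against 1855 and 1875, and POLA1, with 623 and 576 against 537 and 616, overlapped with the controls (0.00 and -0.06).

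To ask whether the effect of siGGGGGC differed between the times, the difference of both log2 fold changes was tested as an interaction term. It was negative and passed the test in 35 of 48 members, against 15.2% of all genes tested, and in 8 it was beyond 2-fold, against 6.36%. This number was 14 without replicate 2 of siNT1 at 48 h and 18 without a filter on low counts. Positive differences beyond 2-fold were found in 4.83% of all genes tested and in no member. None passed in the positive direction in edgeR, where at an unadjusted p below 0.05 there were also 0, and DESeq2 and limma-voom found 0. The median difference was -0.79 on the log2 scale (all genes tested, -0.01). UHRF1 differed most, by -1.80 (SE 0.203, adjusted p = 1.39e-05), from 0.41 at 24 h to -1.38 at 48 h. MCM7 followed, with a difference of -1.21 (SE 0.121, adjusted p = 4.33e-06).

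Both times had their own controls, so the calls can be set beside each other. Of the 15 members that were higher at 24 h, 9 were lower at 48 h: MCM2, MCM5, MCM7, CDT1, GMNN, CDC45, POLD3, POLE and FEN1. CDC6 and RFC4 were higher at both times, with differences that did not pass the test (-0.31, adjusted p = 0.12, and 0.08, adjusted p = 0.646). The other 4, ORC6, POLA2, POLD1 and RPA1, passed at 24 h and not at 48 h. For ORC6 the difference between the times did not pass the test (-0.29, adjusted p = 0.116). A further 24 members were lower at 48 h without a call at 24 h. RFC3 is among these 24, and its difference did not pass either (-0.25, adjusted p = 0.171). Of the 9 listed first, FEN1 alone kept its 24 h call in each fit that left out a compared library. At 48 h the calls of MCM5, CDT1, GMNN and CDC45 were lost in some such fits. No called member changed sign in them. The shares of all genes tested with these joint patterns were not computed, so the counts describe the members only.

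**Figure D4:**
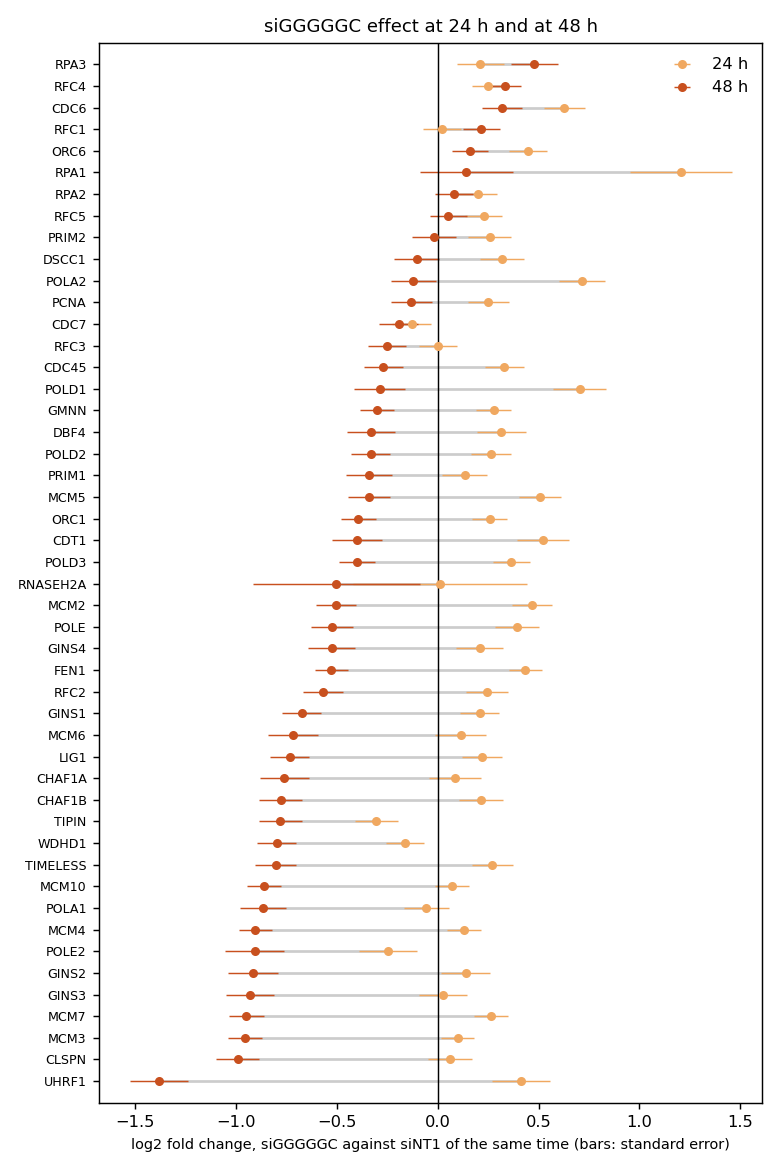
Log2 fold change of siGGGGGC against siNT1 (x axis, bars are standard errors) at 24 h and 48 h for each of the 48 genes, sorted by the value at 48 h. Values at 24 h lie mostly right of 0 (43 of 48) and values at 48 h mostly left of it, with UHRF1 at the lower end (-1.38) and RPA3 at the upper end (0.48).

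Both siRNAs were then compared directly at 48 h, without the control libraries. The members were higher with siGGGGGC than with siGGCAGU in 43 of 48 cases, 29 of them by more than 2-fold, where 26.7% and 10.1% of all genes tested were. The median log2 difference was 1.17 (all genes tested, -0.01), and 45 members did not overlap between the groups in this direction (37.7% of all genes tested). GMNN differed most, at 1361 and 1313 against 211 and 234 normalised counts (log2 difference 2.58, SE 0.0981, adjusted p = 2.63e-11). MCM3 differed by 2.24 (SE 0.0931, adjusted p = 6.32e-11), MCM2 by 2.22 (SE 0.109, adjusted p = 3.05e-10) and ORC6 by 2.104 (SE 0.103, adjusted p = 2.85e-10). All 11 licensing factors were higher with siGGGGGC, 10 of them by more than 2-fold.

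Not every member followed. TIPIN was lower with siGGGGGC, at 398 and 439 normalised counts against 568 and 492 with siGGCAGU (log2 difference -0.33, SE 0.111, adjusted p = 0.019), the single member in this direction (27.6% of all genes tested). It lost its call with DESeq2 (-0.31), without replicate 1 of siGGCAGU (-0.23) and without replicate 1 of siGGGGGC (-0.27). POLA1 (0.28, SE 0.122, adjusted p = 0.0635), POLD2 (0.07, SE 0.0991, adjusted p = 0.592), RPA1 (0.05, SE 0.234, adjusted p = 0.864) and RNASEH2A (1.31, SE 0.553, adjusted p = 0.0574) did not pass. For POLD2 and RPA1 the libraries overlapped.

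The times were also compared within the control cells. By the study's methods, the wells kept to 48 h received fresh medium at 24 h. Time in culture and the change of medium cannot be told apart here. Between 24 h and 48 h of siNT1, 8 of 48 were lower and 5 higher, against 7.20% and 9.37% of all genes tested, and the median log2 fold change was -0.10. The 6 subunits of the ring had log2 fold changes between -0.17 (MCM3) and 0.24 (MCM6). Beyond 2-fold, 0 members were lower and 1, RPA1, was higher, against 0.461% and 1.06% of all genes tested. RPA1 was not called beyond 2-fold with limma-voom, without either siNT1 library of 24 h, or without replicate 1 of siNT1 at 48 h. The libraries of both times did not overlap in 24 members that were lower (30.8% of all genes tested) and 14 that were higher (30.8%). RPA1 had 417 and 326 normalised counts at 24 h and 984 and 541 at 48 h (log2 fold change 1.03, SE 0.247, adjusted p = 0.0128), and UHRF1 had 1173 and 1134 against 2312 and 2051 (0.92, SE 0.142, adjusted p = 0.00103). RPA3 moved the other way, from 3354 and 3091 to 1896 and 2327 (-0.61, SE 0.116, adjusted p = 0.00386). The controls of UHRF1, RPA1 and RPA3 therefore differed between the times at which siGGGGGC was compared with them. The counts in this comparison rested on single libraries, since leaving out 1 left 0 to 12 lower and 1 to 7 higher members.

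The sequence features shown above were set beside these changes, as descriptions with no test. With siGGCAGU, the 25 members with an E2F word were all lower, 22 by more than 2-fold, with a median log2 fold change of -1.81. Of the 16 members with no such word in the table's promoters, 15 were lower, with a median of -1.37. Of the 7 members with no promoter in the table, 6 were lower, with a median of -1.38. With siGGGGGC at 48 h the medians were -0.72 for the 25, -0.34 for the 16 and -0.34 for the 7. At 24 h they were 0.14, 0.26 and 0.21. The 8 members with a siGGCAGU seed match in the 3′ UTR had a median of -1.97 with siGGCAGU and the other 40 had -1.62. The 22 members with no match in the 3′ UTR or coding sequence had a median of -1.54, and 20 of them were lower. The 5 members with a siGGGGGC match in the 3′ UTR (MCM7, RNASEH2A, TIPIN, CHAF1A and UHRF1) had a median of -0.78 with siGGGGGC at 48 h and 0.09 at 24 h, against -0.39 and 0.24 for the other 43.

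**Figure D5:**
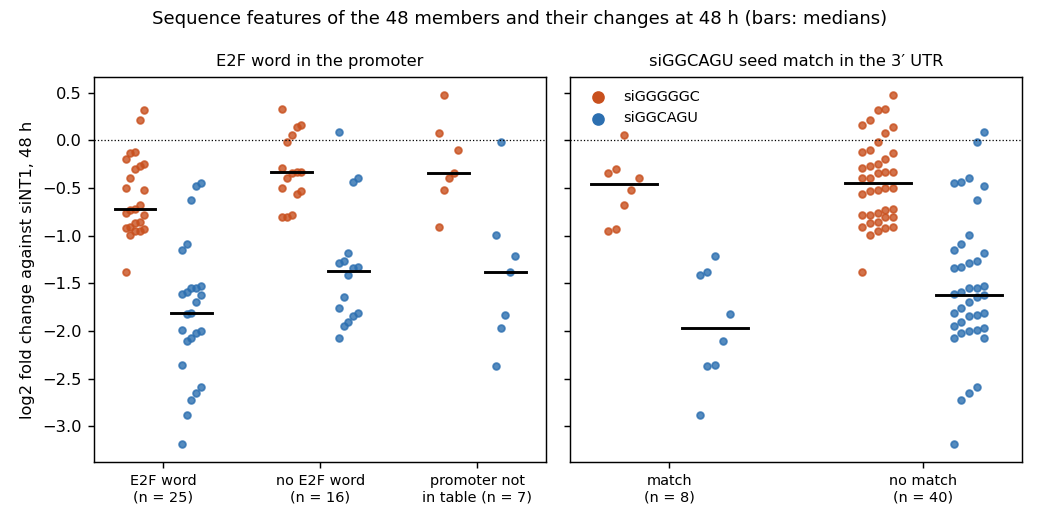
Log2 fold change against siNT1 at 48 h (y axis) of the 48 genes, split by an E2F word in the promoter (left) and by a siGGCAGU seed match in the 3′ UTR (right). Points are genes and bars are medians, which for siGGCAGU are -1.81 with and -1.37 without an E2F word, and -1.97 with and -1.62 without a seed match.

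Genes that work beside the members were counted from fixed lists. Of 35 other replication genes, siGGCAGU lowered 27 and raised 3 (median log2 fold change -1.19), and siGGGGGC lowered 18 and raised 6 at 48 h and raised 8 at 24 h. For these and the lists that follow, the shares of all genes tested that were lower and higher were 24.9% and 27.8% with siGGCAGU, 27.5% and 27.8% with siGGGGGC at 48 h, and 8.32% and 10.6% at 24 h. DTL, the adaptor through which CDT1 is degraded on PCNA, had -2.73 with siGGCAGU (SE 0.101, adjusted p = 2.03e-11) and -0.72 with siGGGGGC at 48 h (SE 0.0904, adjusted p = 7.17e-06). ORC2 and ORC4, partners of ORC1 and ORC6, differed from each other in direction, at -1.02 and 0.29 with siGGCAGU and -1.16 and 0.60 with siGGGGGC, all past the test. Of 14 regulators of entry into S phase, 13 were lower with siGGCAGU. Among them were E2F1 (-2.04) and E2F3 (-0.66) of the E2F family, CCNE2 (-1.58) and CDC25A (-3.47). With siGGGGGC at 48 h, 7 of the 14 were lower and 6 higher. E2F1 had -0.96, whereas E2F3 had 0.53, CCNE2 1.07 and CDC25A 0.28. All 12 genes of G2 and mitosis were lower with siGGCAGU (median -1.79) and 11 of 12 with siGGGGGC at 48 h (median -0.88), while at 24 h 6 were higher and 1 lower. The fall of the members was thus accompanied by a fall of genes of other cell cycle phases, and the part of cell cycle position in it was not tested.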

How the data were processed

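Total RNA of HeyA8 cells was depleted of ribosomal RNA and sequenced by the authors, who trimmed the reads, aligned them to hg38 and counted reads per Ensembl gene with HTSeq. The notes name TopHat and Bowtie2, the study's methods also STAR. The strand setting is not given in the sources used here. The deposited values are raw counts per gene with no normalization, 1 file per library, and 0 entries that name no gene. The authors also deposited 4 tables of comparisons with fold changes and p-values, which were not used.

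Genes were filtered with filterByExpr of edgeR 4.0.16 (16905 of 58395 kept) and fitted in 1 quasi-likelihood model of all 10 libraries in 5 groups (TMM normalization, 5 residual degrees of freedom, R 4.3.3). Adjusted p-values follow Benjamini and Hochberg, over all genes tested. A member passed at an adjusted p below 0.05. Normalised counts are TMM-scaled CPM times the mean effective library size of 25982985, and values are mean ± SD over n = 2. The biological coefficient of variation was 0.0837, and libraries held at least 19781445 counts. The smallest raw counts of a member in a library were 2 for RNASEH2A, 48 for GINS3, 57 for CDT1 and 87 for CHAF1B, at which counting alone gives a coefficient of variation of 70.7%, 14.4%, 13.2% and 10.7%. Values per kilobase use the union of GENCODE 44 exons. Of the identifiers, 98.9% were found in GENCODE 44. A motif search used the longest 3′ UTR and coding sequence of each gene.

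Alternatives were DESeq2 1.42.0, limma-voom (limma 3.58.1), relative log expression factors, other filters on low counts, the compared libraries alone, a fit without RN7SL2 and SNORD3A, a replicate block and leaving out each library. The fit was tested on simulated counts. Per-library values are given for MCM2 to MCM7, for the 6 lowest and 3 highest members that passed in each comparison of an siRNA with siNT1, for the 4 most different in each direction between both siRNAs, and for PCNA, POLA1, CDC6, CDT1, GMNN, ORC1, UHRF1 and RFC3. Other members and genes were named after their values were seen. The members and lists were chosen with earlier results of these data known. Tables were made with pandas 2.3.3 and plots with matplotlib 3.10.9.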

Additional observations from a re-analysis of the deposited data

Results flagged for a closer look

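The effect of siGGGGGC against siNT1 was more negative at 48 h than at 24 h, by the interaction term of the edgeR quasi-likelihood fit at an adjusted p below 0.05, in 35 members. The differences (log2 fold change at 48 h minus that at 24 h) are given by role. Among licensing factors they were -1.21 for MCM7, -1.05 for MCM3, -1.03 for MCM4, -0.97 for MCM2, -0.92 for CDT1, -0.84 for MCM5, -0.83 for MCM6, -0.65 for ORC1 and -0.58 for GMNN. Among helicase activation factors they were -1.055 for GINS2, -0.96 for GINS3, -0.93 for MCM10, -0.88 for GINS1, -0.73 for GINS4, -0.65 for DBF4 and -0.60 for CDC45. The polymerase and primase genes had -0.99 for POLD1, -0.92 for POLE, -0.84 for POLA2, -0.81 for POLA1, -0.76 for POLD3, -0.66 for POLE2, -0.60 for POLD2 and -0.47 for PRIM1. Of the clamp loaders, RFC2 had -0.81, and of the RPA subunits RPA1 had -1.07. Lagging strand maturation had -0.96 for FEN1 and -0.95 for LIG1. Fork protection had -1.08 for TIMELESS, -1.05 for CLSPN, -0.64 for WDHD1 and -0.48 for TIPIN. The chromatin factors had -1.80 for UHRF1, -0.99 for CHAF1B and -0.85 for CHAF1A. Of the 35, 8 also differed between the siNT1 libraries of both times, with log2 fold changes of 1.03 for RPA1, 0.92 for UHRF1, 0.68 for CHAF1A, 0.43 for POLE, 0.40 for CLSPN, -0.36 for CDC45, -0.50 for TIPIN and -0.55 for PRIM1, and the part of this in their values was not tested.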

How the results depend on the processing

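With siGGCAGU, compared gene by gene, the same 46 members were lower under each setting run, except that with a mean count of at least 50 only 45 of them were tested, all of which were lower. Its median was -1.72 without a filter on low counts, and 0 to 1 members were higher when a library was left out (RPA1, without replicate 1 of siNT1 at 48 h). For siGGGGGC at 24 h, 1 member was lower with a mean count of at least 50 and 2 in a fit of the compared libraries alone, where 27 were higher and the median was 0.22. Leaving out a library gave 0 to 1 lower, 6 to 22 higher and medians of 0.22 to 0.25. At 48 h with siGGGGGC, 1 member was higher without a filter on low counts, and the median was -0.57 without a filter, -0.40 with a mean count of at least 50, -0.48 without RN7SL2 and SNORD3A, and -0.48 to -0.43 when a library was left out. The member lower in the direct comparison (TIPIN) was lost with DESeq2 (0 lower), and 0 to 1 remained when a library was left out. The median interaction was -0.92 without a filter, -0.82 without both small RNAs, and -0.81 to -0.72 when a library was left out. For siNT1 over time, 4 members were lower and the median was -0.020 without a filter. Leaving out a library gave 0 to 12 lower, 1 to 7 higher and medians of -0.13 to -0.060.

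Without a filter the median of all genes moved to -0.13 for siGGGGGC at 48 h and to -0.15 for the interaction, and the share of lower among all calls from 53.1% to 67.7% for the interaction and from 43.4% to 23.1% for siNT1 over time. At 24 h the log2 fold change of POLA1 changed sign without replicate 1 of siNT1 (0.0015) and without replicate 1 of siGGGGGC (0.039), with -0.16 as the lowest value when a library was left out. That of RFC3 changed sign with a mean count of at least 50 (-0.013), in the compared libraries alone (-0.016), without replicate 2 of siNT1 (-0.019) and without replicate 2 of siGGGGGC (-0.0048), with 0.025 as the highest value when a library was left out. Both lie near 0. The cause of these changes was not tested. Among the values of named members under all settings, 1140 kept direction and side of the threshold, 20 newly passed, 40 no longer passed and 6 changed sign.

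The replicate numbers gave no sign of pairing, with correlations of -0.089 to 0.027 between the deviations of same-numbered libraries of 2 groups. With the replicate block, 0 members were lower and 12 higher with siGGGGGC at 24 h, 33 and 3 at 48 h, 46 and 0 with siGGCAGU, 1 and 43 in the direct comparison, 35 and 0 for the interaction, and 7 and 5 for siNT1 over time. With 2 libraries per group, differences of the size seen at 24 h rest on few degrees of freedom, and a member that did not pass is not shown to be equal between groups.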
